A study of Rattus norvegicus with 24 samples.

Results

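The comparison was between cumulus-oocyte complexes (COCs) of rats given gonadotropin-releasing hormone (GnRH), equine chorionic gonadotropin (eCG) and human chorionic gonadotropin (hCG) in sequence, called the hCG rats here, and COCs of rats given GnRH alone, called the GnRH rats. A COC is the oocyte with the cumulus granulosa cells that surround it. Members were chosen by treatment label and by detection. The 6 hCG rats (10, 11, 12, 22, 23 and 24) and the 6 GnRH rats (4, 5, 6, 16, 17 and 18) gave 12 of the 24 arrays of the series, and 7004 of 21946 probes had a detection score over 0.99 on at least 6 of those 12 arrays. All rats were sexually mature Sprague Dawley females, each rat gave 1 array of amplified COC RNA on an Illumina bead array, and GnRH was given to both groups. The remaining 12 rats, given GnRH and eCG or labelled as controls, were used for the spread and for levels set beside the comparison. Since the hCG rats had also received eCG, the comparison holds the effect of both hormones. The sources used here give no doses, no ages in days, no times between injections and collection, and no site of collection.

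eCG acts largely on the follicle-stimulating hormone receptor and drives follicle growth, while hCG acts on the luteinizing hormone receptor and stands in for the ovulatory surge. In the textbook account, the surge acts on mural granulosa cells, which release the EGF-like ligands amphiregulin, epiregulin and betacellulin. These reach the cumulus cells, which switch on prostaglandin synthesis and a hyaluronan matrix, close their communication with the oocyte and turn towards progesterone synthesis, while the oocyte resumes meiosis.

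Values are log2 of background-corrected, quantile-normalized bead signal, and a log2 difference is hCG minus GnRH with its standard error. A probe was called when limma's adjusted p was under 0.05, adjusted over all 7004 probes. A level belongs to its own probe and is not set against the level of another probe.

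GnRH rats 5 and 16 stood apart from the other 4 GnRH rats. The first principal component of the tested probes held 52.2% of the variance, and the hCG rats scored 42.1 to 52.1 on it. GnRH rat 5 scored 20.4 and GnRH rat 16 scored 18.4, against -29.9 to -17.6 in their 4 group mates. Correlations between arrays of a group ranged between 0.909 and 0.983 in hCG rats and between 0.854 and 0.978 in GnRH rats over 15 pairs each. The comparison was therefore also made without these 2 arrays, as an alternative chosen after the data were seen. Of 149 named genes 141 were called with all rats; without the 2 none of them lost its call or changed direction, and 3 more (Fshr, Inhba and Cyp19a1) gained one. Markers of theca and stroma moved with the same arrays: their summed linear signal was 5615 to 8911 in hCG rats, against 8712 and 6580 in GnRH rats 5 and 16 and 834 to 2563 in the other GnRH rats. Of the 11 such markers on the array 8 were detected in at least 1 hCG rat and 7 in at least 1 GnRH rat; the list holds collagens and Star. The theca markers were low: Insl3 was detected on 0 arrays of either group and Cyp17a1 on 3 hCG and 0 GnRH arrays. The part of such cells in the results was not tested.

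**Figure D1:**
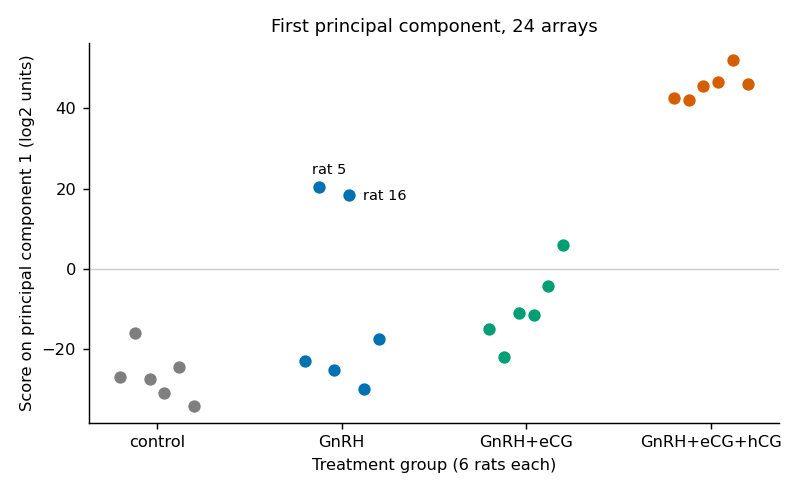
First principal component score (log2 units) of each of the 24 arrays over the tested probes, 1 point per rat, by treatment group. The 6 hCG rats score between 42.1 and 52.1, and GnRH rats 5 (20.4) and 16 (18.4) fall between them and the 4 others of their group (-29.9 to -17.6).

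Markers of cumulus cells and of the oocyte were both present, as the tissue label has it. Summed linear signal of 13 cumulus and granulosa markers was 38382 to 53299 in hCG rats and 42738 to 56707 in GnRH rats. The sum of 8 oocyte markers was 2680 to 3959 in hCG rats and 4636 to 9571 in GnRH rats, without overlap. In pooled tissue such as this, fewer cells of a type and less RNA per cell cannot be told apart. Of the other lists, leukocyte markers summed to 1455 to 2802 in hCG rats against 740 to 2200 in GnRH rats, and endothelial markers to 871 to 1817 in hCG rats against 568 to 2144 in GnRH rats. GnRH rat 5 made the overlap in both lists: without rats 5 and 16 the GnRH sums were 740 to 1277 for leukocytes and 609 to 718 for endothelium, below every hCG rat. Among single members, Ptprc of leukocytes and Cdh5 and Vwf of endothelium were detected on 0 arrays of either group. Of the 3 leukocyte markers that passed the filter, Cd14 and S100a8 were called higher in hCG rats and 0 lower. However, 1 of the 3 passed through 1 group alone and had to differ. Of the 2 endothelial markers that passed, 0 were called with all rats, and Esam was called higher by 1.38 without rats 5 and 16. The part of such cells was not tested. Sums of mural granulosa markers (29393 to 46976 in hCG rats, 29131 to 40720 in GnRH rats), erythrocyte markers (3728 to 5499 and 3649 to 8684) and oviduct epithelium markers (7435 to 9767 and 8168 to 10311) also overlapped. On each of the 12 arrays 27.8% to 34.1% of the probes were detected.

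Transcription differed widely between the groups. Of the 7004 probes, 1332 (19%) were called higher and 1455 (20.8%) lower in hCG rats, together 2787 (39.8%), and the median difference over all tested probes was -0.01. The 6 hCG values and the 6 GnRH values did not overlap at 1185 probes (16.9%). The largest rises and falls named below were picked among such genes, so their lack of overlap is no separate result. At least a 2-fold difference was seen at 402 of the probes called higher and 328 of those called lower. Without GnRH rats 5 and 16, 1533 probes were called higher and 1685 lower, and 2536 of the 2787 calls were kept, all in the same direction. Each group held 3 rats numbered 1 to 12 and 3 numbered 13 to 24. Of the 2787 called probes 2786 had the same direction in both sets of rats. The calls were made on these same rats, so this is no replication. In fits within each set, 388 probes were called in both. At gene level, with each of 4943 named genes represented by its brightest probe, 1004 were called higher and 1052 lower. Of these, 25 genes were detected on all 6 hCG arrays and 0 GnRH arrays, and 28 genes the other way round. They passed the detection filter through 1 group alone and so had to differ. Their differences include signals below detection, so their adjusted p is not given for this comparison. In the gene lists below, the share called counts genes, while the 39.8% set beside it counts probes.

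The EGF-like ligands amphiregulin and epiregulin were higher in every hCG rat than in any GnRH rat, while betacellulin (Btc) was detected on 0 arrays of either group. Amphiregulin (Areg) had a log2 signal of 8.77 at the lowest, 11.59 at the median and 12.23 at the highest in hCG rats, against 5.36, 5.57 and 6.61 in GnRH rats. Areg was detected on all 6 hCG arrays and on 0 GnRH arrays, so its fold is given as a bound: at least 23.6-fold higher in hCG rats (difference 5.48 ± 0.42). Such a bound sets the hCG mean against the lowest signal called detected on each GnRH array, or the probe's own value there where that was higher. Epiregulin (Ereg), the related ligand, had 9.67, 11.95 and 12.13 in hCG rats and 5.57, 6.02 and 8.68 in GnRH rats. The groups did not overlap, a condition for naming the largest rises, and GnRH rats 5 and 16, at 8.68 and 8.08, were the highest GnRH values. Ereg differed by 4.89 ± 0.51 (29.6-fold, adjusted p = 1.63e-07), and by 5.74 without those 2 rats.

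The receptor side moved in smaller steps. Egfr, the receptor of these ligands, rose by 1.44 ± 0.19 on the log2 scale (adjusted p = 4.97e-06), and Tgfa, another ligand, by 0.93 ± 0.22 (adjusted p = 0.00174). Errfi1, a feedback inhibitor of the receptor, rose by 2.08 ± 0.51 and by 3.12 without rats 5 and 16, whose values of 11.12 and 10.84 lay among the hCG values of 10.21 to 11.31. Adam17, the sheddase that frees the ligands from the cell surface, fell: it had 9.22 to 9.50 in hCG rats and 9.98 to 10.35 in GnRH rats, a difference of -0.77 ± 0.10 (adjusted p = 6.18e-06). Of 16 listed genes on the array 7 passed the detection filter, of which 5 rose and 1 fell (85.7% called beside 39.8% of all probes). Their median difference was 1.44 beside -0.01 over all probes. Areg, 1 of the 5 that rose, passed the filter through 1 group alone and had to differ.

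The promoter of Areg held the letters TGACGTCA, the palindromic cyclic AMP response element that factors of the CREB family bind. Its RefSeq window (build GRCr8, chr14:17265592-17265891, minus strand, 250 bases before to 50 after the start) is shown because Areg had the second-largest bound in the comparison, and the capitals mark the element.
Areg: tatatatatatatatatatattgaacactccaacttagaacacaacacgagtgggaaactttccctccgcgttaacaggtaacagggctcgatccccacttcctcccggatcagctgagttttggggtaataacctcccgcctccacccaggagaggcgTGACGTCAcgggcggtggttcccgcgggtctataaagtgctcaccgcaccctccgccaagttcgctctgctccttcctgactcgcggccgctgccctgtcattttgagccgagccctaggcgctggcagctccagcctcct

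The other genes with this element and a called difference of at least 2-fold are shown to set the letters around it side by side. Of 248 such genes with a promoter that were higher in hCG rats 7 held it (Areg among them), and of 194 that were lower 2 held it, searched on both strands.
Abcg2: cggcgcgagcTGACGTCAccgcggcgga
Giot1: tcTGACGTCAagacgcccaa
Pmepa1: cgtctagcgcTGACGTCAgaccgtctgc
Ppp1r15a: gcctctccggTGACGTCAgcatagcgct
Slc25a25: ctgcaagcagTGACGTCAgtcctgatct
Zfyve27: acgggcgaggTGACGTCAcgggcgcgcc
Fam50a: tcccagttggTGACGTCAcgtatcagct
Mapk1ip1: ccccgccggaTGACGTCAtccccctccg

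The windows lie, in that order, at chr4:89075402-89075429 (plus strand), chr7:10887196-10887215 (minus), chr3:182478636-182478663 (minus), chr1:105139645-105139672 (minus), chr3:36116722-36116749 (minus), chr1:250929091-250929118 (plus), chrX:157246520-157246547 (plus) and chr1:203095507-203095534 (minus). Abcg2, a membrane exporter, was higher by 1.11, Giot1, a gonadotropin-inducible zinc finger repressor, by 2.15 and Pmepa1, a TGF-beta feedback inhibitor, by 2.41. Ppp1r15a, a phosphatase regulator of the stress response, was higher by 1.29, Slc25a25, a mitochondrial carrier, by 1.90 and Zfyve27, the neurite-outgrowth protein protrudin, by 1.46. Fam50a and Mapk1ip1 were lower, with differences of -1.06 and -1.60. The element stood in 2.82% of the promoters of genes higher by at least 2-fold and 1.03% of those lower, against 3.89% of 4194 promoters of tested genes and 1.91% of all 27457 promoters. The shorter motif TGACG, which lies within the palindrome, stood in 37.1% and 26.3% of the higher and lower sets against 36.3% of tested genes, and the AP-1 motif TGANTCA in 7.26% and 4.64% against 4.7%. These are matches of letters, not measured binding.

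Of 12 measured MAP kinase phosphatases and feedback inhibitors 6 rose, 2 fell and 4 did not pass, with a median difference of 0.44; 66.7% were called, beside 39.8% of all probes. Dusp5, a nuclear ERK phosphatase, had 7.21, 8.77 and 9.79 in hCG rats (lowest, median and highest) and 5.53, 5.99 and 7.10 in GnRH rats. It rose by 2.57 ± 0.30, the related cytoplasmic phosphatase Dusp6 by 1.43 ± 0.23 and Spry2, a Sprouty inhibitor of receptor kinases, by 1.83 ± 0.24. These were picked members, and the groups did not overlap in any of them. Lack of overlap was seen at 16.9% of all probes. The Ras-like protein Rasd1 fell by 1.25 ± 0.22 and Dusp7 by 0.92.

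Genes of prostaglandin synthesis moved in both directions. Ptgs2, the inducible cyclooxygenase that commits arachidonic acid to prostaglandins, had 11.53, 12.97 and 13.25 in hCG rats and 5.21, 5.47 and 6.13 in GnRH rats. It was detected on all hCG arrays and 0 GnRH arrays, and was at least 66.8-fold higher in hCG rats (difference 7.21 ± 0.39), the highest of the 25 bounds of this kind. Pla2g4a, the cytosolic phospholipase that frees arachidonic acid, had 11.14, 11.63 and 12.00 in hCG rats and 7.34, 7.70 and 7.94 in GnRH rats, where it was detected in every rat. It rose 15.6-fold (3.96 ± 0.20, adjusted p = 1.57e-12). In neither gene did GnRH rats 5 and 16 come near the hCG rats, at 6.13 and 6.03 for Ptgs2 and 7.94 and 7.82 for Pla2g4a.

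Ptges, the inducible prostaglandin E synthase, which acts after Ptgs2, went the other way. It had 5.49, 5.61 and 6.34 in hCG rats and 7.48, 8.72 and 9.36 in GnRH rats, and was detected on 0 hCG arrays and all 6 GnRH arrays. Ptges was at least 2.4-fold lower in hCG rats (-2.71 ± 0.30). Enzymes of other branches and of breakdown were higher: Ptgds, the prostaglandin D synthase, by 2.01 ± 0.51, Hpgd, which inactivates prostaglandins, by 1.74 ± 0.54, and the carbonyl reductase Cbr1 by 1.98 ± 0.43 (2.78 without rats 5 and 16). All 3 overlapped between the groups, and the difference of Hpgd was 0.72 among rats 1 to 12 and 2.76 among rats 13 to 24. Of 12 measured pathway genes 5 rose and 1 fell (50% called beside 39.8% of all probes), with a median of 0.68. Ptgs2 and Ptges, counted here, passed the filter through 1 group alone and had to differ. Without rats 5 and 16, 7 rose and 2 fell, with a median of 1.22.

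**Figure D2:**
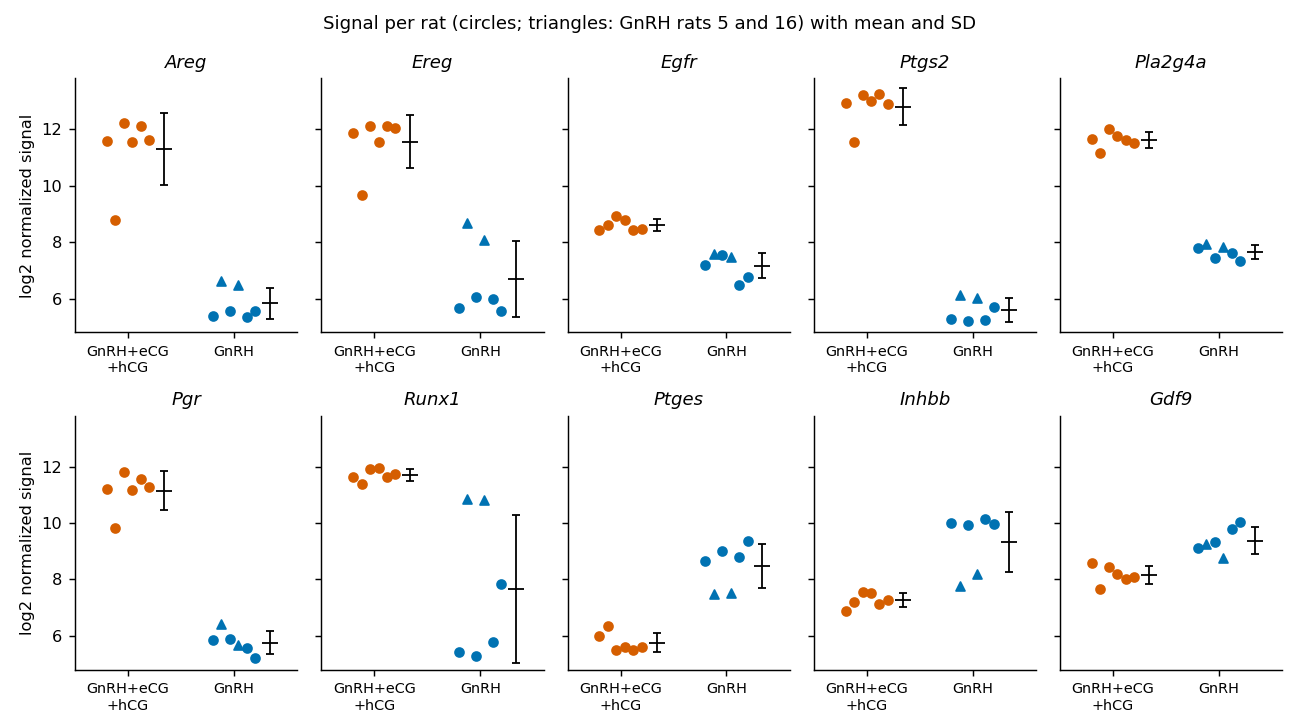
Log2 normalized signal of selected genes in each rat, 1 circle per rat (triangles for GnRH rats 5 and 16) with the group mean and SD, and with the hCG rats to the left of the GnRH rats in each panel. Ptgs2 lies at 11.53 to 13.25 in hCG rats and at 5.21 to 6.13 in GnRH rats, while Ptges lies at 5.49 to 6.34 in hCG rats and 7.48 to 9.36 in GnRH rats.

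Transcription factors of the ovulatory response were mostly higher, and differed in how GnRH rats 5 and 16 stood. The progesterone receptor Pgr, which is required for follicle rupture in mice, had 9.83, 11.24 and 11.80 in hCG rats and 5.22, 5.75 and 6.42 in GnRH rats. It was detected on 0 GnRH arrays and was at least 21.1-fold higher in hCG rats (5.38 ± 0.33). Runx1, a factor induced in ovulating follicles, had 11.38, 11.68 and 11.94 in hCG rats and 5.28, 6.82 and 10.85 in GnRH rats. The GnRH values split, with rats 5 and 16 at 10.85 and 10.82 and the others at 5.28 to 7.84. Runx1 differed by 4.03 ± 0.77 (adjusted p = 0.000287), and by 5.62 without them. Cebpb, needed for ovulation and luteinization in mice, rose by 1.98 ± 0.37 (2.73 without them), the clock gene Per1 by 2.19 ± 0.22 and the zinc finger factor Klf10 by 1.24 ± 0.20, again with rats 5 and 16 as the highest GnRH values of each. Nrip1, a corepressor of nuclear receptors that mice need for ovulation, fell by 1.04 ± 0.28. Of 22 measured factors 13 rose and 1 fell (median 1.04, 63.6% called beside 39.8% of all probes). Pgr, 1 of the 13, passed the filter through 1 group alone and had to differ. Without the 2 rats 16 rose and 1 fell (median 1.46).

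Of 8 measured genes of the hyaluronan matrix 4 rose and 0 fell (50% called, beside 39.8% of all probes; median 0.80), and 6 rose without rats 5 and 16 (median 1.66). The hyaluronan synthases Has1 and Has2 were each detected on 5 hCG arrays and 0 GnRH arrays, 1 array short of the filter, and were not tested. Cd44, the hyaluronan receptor, had 7.45 to 7.82 in hCG rats and 5.24 to 6.70 in GnRH rats, and was at least 1.82-fold higher in hCG rats (1.91 ± 0.24). Cd44 was 1 of the 4 rises and passed the filter through 1 group alone, so it had to differ. Versican (Vcan), a proteoglycan that binds hyaluronan, had 12.20 to 12.44 in hCG rats and 11.38 to 11.79 in GnRH rats, a difference of 0.77 ± 0.11. Both were without overlap, which held for 16.9% of all probes. Syndecan 1 (Sdc1), a cell-surface proteoglycan, rose by 1.77 ± 0.42, and by 2.45 without rats 5 and 16. Adamts1, the protease that cleaves versican, had 11.06, 11.82 and 12.22 in hCG rats and 7.92, 9.28 and 12.51 in GnRH rats, whose rats 5 and 16 were at 12.51 and 12.32, above every hCG rat. Its difference of 1.86 ± 0.74 passed narrowly (adjusted p = 0.0478). The call was lost when any of 10 of the 12 arrays was left out, each but GnRH rats 5 and 16 (adjusted p of 0.0509 to 0.128), and the difference was 3.13 without those 2 rats.

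Enzymes that supply sugars to the matrix followed. Gfpt2, which starts the hexosamine pathway, had 8.40 to 9.17 in hCG rats and 5.75 to 7.11 in GnRH rats and rose 5.87-fold (2.55 ± 0.22, adjusted p = 9.56e-09). Uap1, which makes UDP-N-acetylglucosamine, had 8.52, 10.41 and 11.27 in hCG rats and 7.27, 7.81 and 8.36 in GnRH rats, and rose 5.35-fold (2.42 ± 0.31). For Uap1, GnRH rats 5 and 16 were the lowest of their group, at 7.42 and 7.27. Ugdh and Uxs1, which make UDP-glucuronate and use it, rose by 1.02 ± 0.24 and 1.43 ± 0.41 (1.48 and 2.19 without rats 5 and 16), with those 2 rats within the hCG range for each. Of 9 measured genes 4 rose and 1 fell (median 0.34, 55.6% called beside 39.8% of all probes).

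Among collagens, basement membrane genes and integrins, Itga2 and Lama1 gave differences for which rats 5 and 16 lay with the other GnRH rats. Itga2, a collagen-binding integrin subunit, had 9.15, 9.47 and 10.08 in hCG rats and 5.13, 5.90 and 6.70 in GnRH rats. Detected on 0 GnRH arrays, it was at least 6.8-fold higher in hCG rats (3.65 ± 0.29). Itga1, a related subunit, differed by 2.02, and by 2.70 without rats 5 and 16, which stood at 9.41 and 8.76. Lama1, a laminin of basement membranes, had 7.72 to 8.21 in hCG rats and 9.00 to 9.69 in GnRH rats and fell by 1.19 ± 0.13. Of the 16 measured genes 4 rose and 1 fell with all rats (median 0.90). The share called, 31.2%, was below the 39.8% of all probes. Itga2, 1 of the 4, passed the filter through 1 group alone and had to differ. Without rats 5 and 16, 11 rose and 1 fell (median 1.53). Adamts3, a procollagen peptidase, rose by 3.92 ± 0.39 and Cthrc1, a secreted collagen-like protein, by 3.79 ± 0.49 (4.63 without the 2 rats). Both were picked among genes without overlap. The theca and stroma markers, several of them collagens, moved with this list.

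Of 13 measured proteases and protease inhibitors 4 rose, 2 fell and 7 were not called (median 0.37, 46.2% called beside 39.8% of all probes). Without rats 5 and 16, 6 rose and 2 fell (median 0.61). Among the inhibitors, A2m and Timp1 had rats 5 and 16 near the hCG rats. A2m, the broad protease inhibitor alpha-2-macroglobulin, had 10.80, 11.30 and 11.90 in hCG rats and 5.38, 7.72 and 11.97 in GnRH rats. Its GnRH values fell in 2 clusters, with rats 5 and 16 at 11.87 and 11.97. It differed by 2.89 ± 0.97 (adjusted p = 0.0202) and by 4.65 without the 2 rats, and leaving out GnRH rat 4, 6 or 17 alone ended the call (adjusted p of 0.0561 to 0.0635). Timp1, a metalloproteinase inhibitor, rose by 1.64 ± 0.50 and by 2.51 without them, and Timp3, bound to the matrix, by 0.75 ± 0.12 without overlap. Mmp11, the metalloproteinase stromelysin 3, fell by 2.25 ± 0.24, with 6.04 to 7.12 in hCG rats and 8.05 to 9.40 in GnRH rats.

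Cyclic AMP signalling changed in a few genes among many. Phosphodiesterases, which break down cyclic nucleotides, split by family member. Pde10a had 9.42, 9.98 and 10.42 in hCG rats and 5.52, 6.05 and 7.22 in GnRH rats, a rise of 3.74 ± 0.29 (adjusted p = 1.68e-09). Pde4d, detected on 0 GnRH arrays, was at least 3.16-fold higher in hCG rats (2.41 ± 0.32). Pde3a, the family member that breaks down cyclic AMP in the oocyte, fell by 1.25 ± 0.33, with 7.09 to 8.34 in hCG rats and 8.49 to 9.59 in GnRH rats. Rgs2, a regulator of G-protein signalling, rose by 1.25 ± 0.25. The gonadotropin receptors themselves did not pass. Fshr had 7.30, 8.35 and 8.90 in hCG rats and 7.72, 9.52 and 9.72 in GnRH rats (-0.78 ± 0.33, adjusted p = 0.0648), and Lhcgr differed by 0.26 ± 0.71 (adjusted p = 0.804), and by -0.60 without rats 5 and 16 (adjusted p = 0.523). Without GnRH rats 5 and 16, which had the 2 lowest GnRH values of Fshr, its difference was -1.37 and passed (adjusted p = 0.000172). Of 20 measured genes 5 rose and 1 fell (median 0.23, 30% called beside 39.8% of all probes). Pde4d, 1 of the 5, passed the filter through 1 group alone and had to differ. Without the 2 rats 5 rose and 3 fell (median 0.10).

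Inhibin, AMH and BMP signalling genes fell more often than they rose. Inhbb, the beta-B subunit of activin and inhibin, had 6.87, 7.24 and 7.54 in hCG rats and 7.76, 9.95 and 10.14 in GnRH rats and fell by 2.08 ± 0.32 (adjusted p = 2.76e-05), with -2.75 without rats 5 and 16. The other subunit genes did not pass: Inha differed by 0.15 ± 0.19 (adjusted p = 0.562) and Inhba by -0.23 ± 0.28 (adjusted p = 0.533). Without rats 5 and 16, which had the lowest GnRH values of both, Inhba fell by 0.70 (adjusted p = 0.0139). Bmpr1b, a BMP receptor of the oocyte and granulosa cells, fell by 1.81 ± 0.26, the pseudoreceptor Bambi by 1.40 ± 0.20 and the inhibin coreceptor Tgfbr3 by 1.49 ± 0.30. None of these 3 overlapped between the groups, but they were picked from the 22 with results known. Lack of overlap was seen at 16.9% of all probes. Amhr2, the receptor of anti-Müllerian hormone, fell by 1.32 ± 0.19 without overlap. Its ligand Amh fell by 1.35 ± 0.39, with differences of -0.17 among rats 1 to 12 and -2.52 among rats 13 to 24. Sostdc1, a secreted BMP and Wnt antagonist, had 9.07, 9.38 and 9.58 in hCG rats and 10.62, 12.02 and 12.36 in GnRH rats and fell by 2.34 ± 0.23. Of 22 measured genes of the list 3 rose and 9 fell (median -0.26, 54.5% called beside 39.8% of all probes).

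Of 7 measured transcription factors and nuclear receptors of granulosa identity 1 rose and 2 fell with all rats (median -0.32), and 2 rose and 4 fell without rats 5 and 16 (median -0.48). The share called with all rats, 42.9%, was near that of all probes. Nr5a2, a nuclear receptor required for ovulation in mice, had 9.92 to 10.83 in hCG rats and 10.88 to 11.23 in GnRH rats, a difference of -0.53 ± 0.14. Foxo3 rose by 0.69 ± 0.22 (adjusted p = 0.0162), a call that ended without hCG rat 12 (adjusted p = 0.0508).

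Steroid synthesis genes were called at a share of 37.5%, near that of all probes (39.8%), with rises in genes of cholesterol delivery. Star, which carries cholesterol into mitochondria, had 11.07, 11.46 and 11.56 in hCG rats and 7.06, 8.64 and 10.36 in GnRH rats, where rats 5 and 16 were highest at 10.36 and 9.75. It rose 6.89-fold (2.78 ± 0.53, adjusted p = 0.000245), and by 3.51 without them. Fdx1, the electron donor of the side-chain cleavage enzyme, rose by 1.23 ± 0.23 without overlap, and Scarb1, the lipoprotein receptor, by 1.92 ± 0.48 (2.71 without the 2 rats). Hsd11b1, which activates glucocorticoids, rose by 2.37 ± 0.68 and by 3.63 without the 2 rats. Cyp11a1, the cleavage enzyme itself, differed by 0.28 ± 0.23 and aromatase Cyp19a1 by -0.49 ± 0.65, neither past the threshold. Without rats 5 and 16, at 9.18 and 7.84 the lowest GnRH values, Cyp19a1 fell by 1.57 (adjusted p = 0.0175). Of 16 measured steroidogenic genes 5 rose and 1 fell (median 0.26), or 5 and 3 without the 2 rats (median 0.41).

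In the cholesterol pathway, 10 of 17 measured genes rose and 1 fell (median 0.59, 64.7% called beside 39.8% of all probes). Without rats 5 and 16, 13 rose and 1 fell (median 0.87). Idi1, an isomerase of the isoprenoid part of the pathway, had 12.32, 12.42 and 12.49 in hCG rats and 8.56, 9.45 and 12.20 in GnRH rats. It rose by 2.32 ± 0.57, with rats 5 and 16 just below the hCG rats at 12.20 and 12.15, and by 3.37 without them. The lanosterol demethylase Cyp51 rose by 1.83 ± 0.40 (2.51 without them) and the desaturase Sc5d by 1.08 ± 0.18. The gene that fell was Insig2, which holds back the sterol-sensing machinery: it had 9.45 to 10.57 in hCG rats and 10.78 to 11.41 in GnRH rats, a difference of -1.26 ± 0.16 (adjusted p = 3.54e-06).

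Transcripts of the oocyte fell. Of 14 measured oocyte genes 0 rose and 13 fell (median -1.14, 92.9% called beside 39.8% of all probes). The other was Btg4, at -0.75 (adjusted p = 0.0642), and all 14 fell without GnRH rats 5 and 16 (median -1.37). Gdf9, a growth factor the oocyte sends to cumulus cells, had 7.65, 8.15 and 8.57 in hCG rats and 8.75, 9.29 and 10.02 in GnRH rats. It fell by 1.22 ± 0.29 (adjusted p = 0.00234), and Zp3, a zona pellucida protein, by 1.18 ± 0.30. The oocyte linker histone H1f8 fell by 1.35 ± 0.25, the chaperone Npm2 by 0.97 ± 0.20 and Bcl2l10, a survival gene of oocytes, by 1.77 ± 0.44. The groups overlapped in none of these 5, which were picked from the 14 with results known. Lack of overlap was seen at 16.9% of all probes. Bmp15, the partner of Gdf9, fell by 0.92 ± 0.31 (adjusted p = 0.0202), a call that was lost without GnRH rat 17 or 18 (adjusted p = 0.0572 and 0.0524). Bead signal was scaled within each array, so these falls are relative to the other transcripts of the complex.

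**Figure D3:**
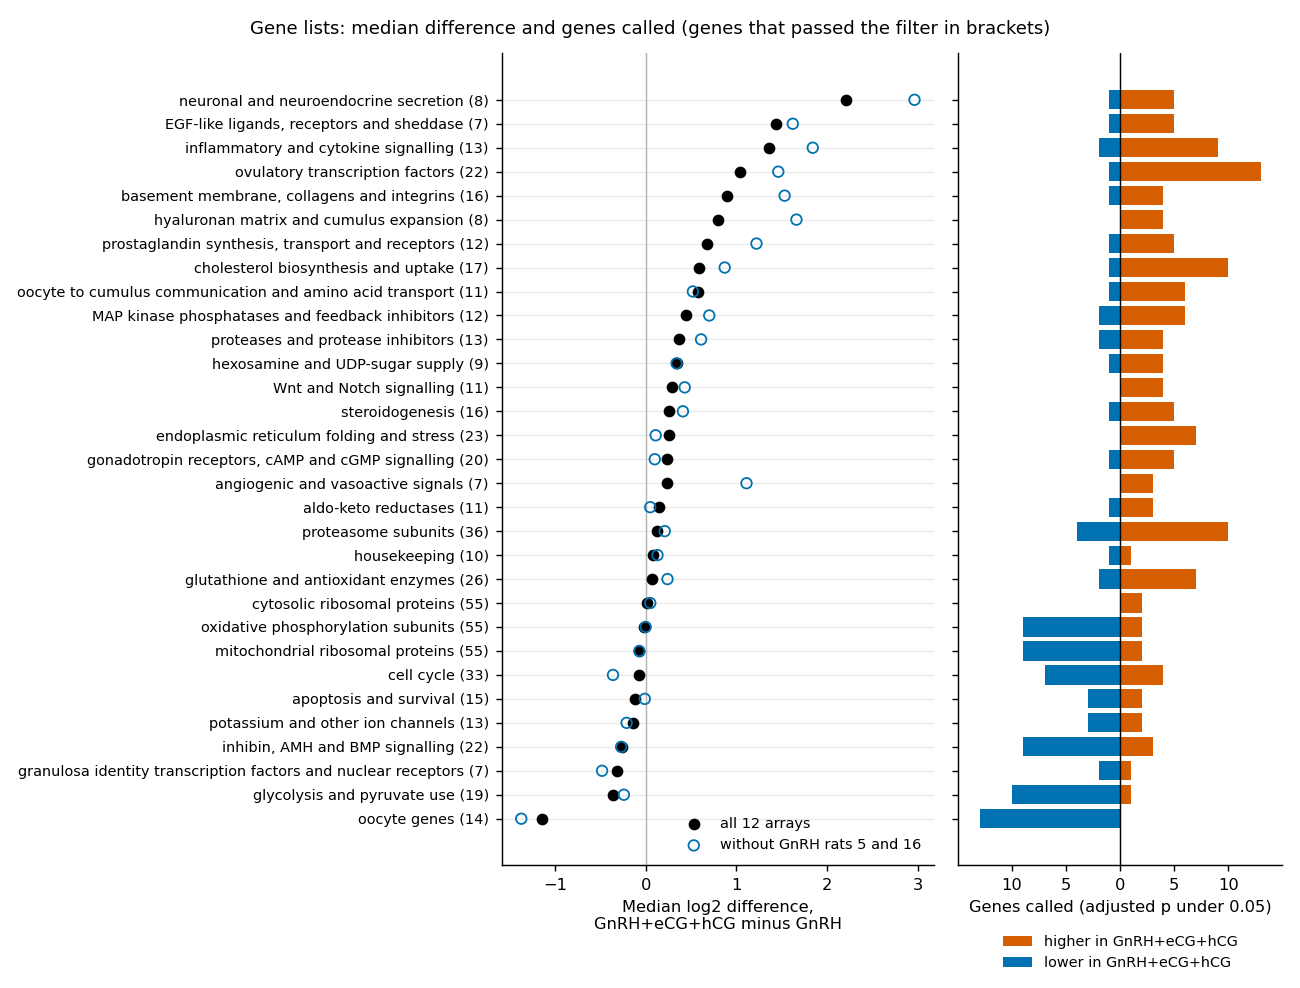
Median log2 difference (hCG minus GnRH) of each gene list over its measured genes, with all rats (filled points) and without GnRH rats 5 and 16 (open points), and beside it bars for the number of genes called higher and lower in hCG rats. Lists run down the page with the number of measured genes in brackets. The oocyte genes lie at -1.14 with all rats and -1.37 without the 2, and the ovulatory transcription factors at 1.04 and 1.46.

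Links between oocyte and cumulus cells changed in part. Gja4, the connexin that joins oocyte and cumulus cells in mice, had 6.50 to 8.20 in hCG rats and 7.99 to 9.33 in GnRH rats and fell by 1.42 ± 0.35 (adjusted p = 0.00283). Gja1, the connexin between cumulus cells, differed by -0.26 ± 0.14 (adjusted p = 0.134). The amino acid transporter Slc7a5 rose by 2.01 ± 0.27 without overlap. Of 11 measured genes of this list 6 rose and 1 fell (median 0.58, 63.6% called beside 39.8% of all probes).

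Cell cycle genes were called at 33.3%, below the 39.8% of all probes. Cdk6, a G1 kinase, had 8.09, 8.65 and 9.00 in hCG rats and 6.10, 6.47 and 7.04 in GnRH rats, a rise of 2.02 ± 0.20 (adjusted p = 6.11e-08). Its partner Ccnd1 rose by 1.48 ± 0.44. The kinase inhibitor Cdkn1a rose by 2.91 ± 0.67 (4.23 without rats 5 and 16), with 9.32 to 10.58 in hCG rats against 9.66 and 10.03 in GnRH rats 5 and 16 and 5.55 to 6.72 in the other GnRH rats, and the inhibitor Cdkn1b fell by 1.00 ± 0.22. Tyms, which makes thymidylate for DNA synthesis, fell by 0.97 ± 0.16 without overlap. Of 33 measured genes 4 rose and 7 fell (median -0.07), and 4 rose and 14 fell without rats 5 and 16 (median -0.36). Among apoptosis genes 2 of 15 rose and 3 fell (median -0.12, 33.3% called beside 39.8% of all probes). Gadd45b, induced by stress, rose by 1.64 ± 0.31, and the pseudokinase Trib2 fell by 1.70 ± 0.26, with 9.66 to 10.40 in hCG rats and 10.70 to 12.50 in GnRH rats.

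Glycolysis genes fell more often than they rose: of 19 measured, 1 rose and 10 fell (median -0.36, 57.9% called beside 39.8% of all probes). Gpi, the isomerase of glucose phosphate, had 9.04 to 9.86 in hCG rats and 9.96 to 10.85 in GnRH rats and fell by 0.88 ± 0.14. The muscle-type phosphofructokinase Pfkm fell by 1.14 ± 0.24, the triose isomerase Tpi1 by 0.63 ± 0.13 and the lactate exporter Slc16a3 by 1.55 ± 0.41. Pfkfb3, which makes an activator of phosphofructokinase, was the gene that rose, by 1.59 ± 0.55 (adjusted p = 0.024), and that call ended without GnRH rat 4, 6 or 18 (adjusted p of 0.0558 to 0.0656). Without rats 5 and 16 the difference of Pfkfb3 was 2.42 and the count was 4 higher and 10 lower.

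Aldo-keto reductases and the glutathione and antioxidant enzymes were called at 36.4% and 34.6%, below the 39.8% of all probes, but single members differed widely. Akr1c2, an aldo-keto reductase of the family that acts on steroids and prostaglandins, had 11.05, 11.16 and 11.30 in hCG rats and 5.61, 6.02 and 8.06 in GnRH rats. It rose 28-fold (4.81 ± 0.28, adjusted p = 1.1e-11), with the hCG values spread over less than the GnRH values. Akr1b8, a related reductase, had 11.13 to 12.07 in hCG rats and 8.31 to 8.86 in GnRH rats and rose by 3.08 ± 0.24. Of 11 measured aldo-keto reductases 3 rose and 1 fell (median 0.15). Members of such families are close in sequence, and which of them each probe reads was not checked. Gsta5, a glutathione transferase, rose by 3.29 ± 0.54 (4.35 without rats 5 and 16), Gclm, a subunit of the enzyme that limits glutathione synthesis, by 1.46 ± 0.19 and mitochondrial superoxide dismutase Sod2 by 1.29 ± 0.18. Slc7a11, which imports cystine, was detected on 0 GnRH arrays and was at least 2.43-fold higher in hCG rats (1.48 ± 0.27). Catalase (Cat) fell by 1.17 ± 0.31. Of 26 measured genes 7 rose and 2 fell (median 0.07). Slc7a11, 1 of the 7, passed the filter through 1 group alone and had to differ.

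Cytokine genes and their receptors that passed the filter mostly rose. Cxcl10, a chemokine, had 8.50, 9.22 and 9.88 in hCG rats and 5.19, 5.34 and 7.44 in GnRH rats, a rise of 3.45 ± 0.28 (adjusted p = 3.3e-09). Tnfrsf12a, the receptor of the TNF-like factor TWEAK, had 9.56, 11.03 and 11.49 in hCG rats and 5.57, 6.59 and 9.27 in GnRH rats. It rose by 3.73 ± 0.58 (4.76 without rats 5 and 16). Cxcl10 and Tnfrsf12a were picked among genes without overlap. Nfkb1, detected on 0 GnRH arrays, was at least 2.24-fold higher in hCG rats (1.70 ± 0.20), and the chemokine Cxcl1 rose by 2.33 ± 0.56 (3.01 without the 2 rats). The interferon-responsive factor Irf1 fell by 1.14 ± 0.19. Of 40 genes of the list on the array 13 passed the filter, 3 of them through 1 group alone, and these 3 had to differ. Of the 13 measured genes 9 rose and 2 fell (84.6% called beside 39.8% of all probes). Their median was 1.36, or 1.16 with genes detected in 1 group only set at their bound. Leukocyte markers moved with these genes: of 13 on the array 5 were detected in at least 1 hCG rat and 4 in at least 1 GnRH rat. Of the 3 that passed the filter Cd14 (1.27 ± 0.26) and S100a8 (2.57 ± 0.42) rose. However, 1 of the 3 passed through 1 group alone and had to differ. The median of the 3 was 1.27, or 0.98 with that gene set at its bound. Sums of the leukocyte markers, 1455 to 2802 in hCG rats, overlapped the GnRH sums of 740 to 2200 through rat 5 alone. The part of leukocytes in these rises was not tested.

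Genes best known from neurons and endocrine cells were among the largest rises. Nefl, the light neurofilament subunit, had 10.09, 11.27 and 12.02 in hCG rats and 5.34, 5.71 and 7.01 in GnRH rats. It was detected on all hCG arrays and 0 GnRH arrays and was at least 21.6-fold higher in hCG rats (5.39 ± 0.29). Adcyap1, the peptide PACAP, which the surge induces in rat granulosa cells, had 11.26, 11.50 and 12.23 in hCG rats and 6.44, 7.95 and 8.32 in GnRH rats. Its rise of 3.92 ± 0.32 (15.1-fold, adjusted p = 4.47e-09) stood beside a fall of its receptor Adcyap1r1 by 1.66 ± 0.48. Ptprn, a protein of dense-core vesicles, rose by 3.46 ± 0.29, the fusion protein Snap25 by 2.93 ± 0.72 and the peptide-amidating enzyme Pam by 1.50 ± 0.38. Snap25 ranged widely within the hCG rats, between 7.65 and 11.45, and GnRH rats 5 and 16, at 10.19 and 9.11, lay within that range. Without them the differences of Ptprn, Snap25 and Pam were 4.05, 4.28 and 2.11. Of 8 measured genes of 33 on the array 5 rose and 1 fell (median 2.21, 75% called beside 39.8% of all probes). Nefl, 1 of the 5, passed the filter through 1 group alone and had to differ.

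Other genes among the largest rises had assorted roles. Trim36, a ubiquitin ligase, had 9.88, 11.03 and 11.60 in hCG rats and 5.96, 6.70 and 8.36 in GnRH rats (4.05 ± 0.38). Clic5, of the chloride intracellular channel family, rose by 3.83 ± 0.47, and Pvr, a nectin-like adhesion protein, by 3.30 ± 0.50. Without rats 5 and 16 these were 4.48 and 4.14. G0s2, an inhibitor of fat breakdown, rose by 3.78 ± 0.77, and by 4.97 without the 2 rats, which stood at 11.08 and 9.83. Another probe of G0s2 gave 3.19 with all rats. Sult1b1, a sulfotransferase, Mfap3l and Dio2, the deiodinase that activates thyroid hormone, were detected on 0 GnRH arrays. They were at least 11-fold, 8.02-fold and 5.49-fold higher in hCG rats.

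The largest falls were smaller than the largest rises. Cd83, a surface protein of the immunoglobulin family, had 5.93, 7.17 and 7.40 in hCG rats and 9.21, 9.86 and 10.33 in GnRH rats, a difference of -2.93 ± 0.29 (adjusted p = 6.29e-08). Rats 5 and 16, at 9.81 and 10.03, lay with the other GnRH rats. Myocd, a coactivator of serum response factor, fell by 2.38 ± 0.26, the corepressor Cbfa2t3 by 2.30 ± 0.24 and butyrylcholinesterase Bche by 2.10 ± 0.34. Metabolic genes among the falls were the galactose mutarotase Galm (-2.06 ± 0.18), the fatty acid transport protein Slc27a6 (-1.94 ± 0.28), Ech1 of fatty acid breakdown (-1.84 ± 0.22) and carbonic anhydrase Car12 (-1.86 ± 0.38, with -1.13 among rats 1 to 12 and -2.58 among rats 13 to 24). The RNA-binding proteins Mov10 and Raver2 fell by 1.92 ± 0.29 and 1.88 ± 0.31, the elongation factor subunit Mllt3 by 2.05 ± 0.29 and Btbd3 by 1.84 ± 0.25. All of these were picked among genes without overlap, which held for 16.9% of all probes.

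Of the 28 genes detected in every GnRH rat and on 0 hCG arrays, 2 with large bounds were ion channels. The potassium channel Kcnk2 had 5.50, 6.10 and 6.94 in hCG rats and 8.12, 9.35 and 10.18 in GnRH rats. It was at least 3.96-fold lower in hCG rats. Kcnj13, an inward rectifier, was at least 2.22-fold lower. The remaining genes of this kind with the largest bounds were the forkhead factor Foxn3 (at least 2.06-fold lower), RragB, a GTPase of amino acid sensing (1.98), the fucosyltransferase Fut8 (1.96), the pore-forming Gsdmd (1.96) and the coenzyme A enzyme Pank1 (1.77). Of all 13 measured ion channel genes 2 rose and 3 fell (38.5% called beside 39.8% of all probes). Of the falls, Kcnk2 and Kcnj13 passed the filter through 1 group alone and had to differ. The median of the 13 genes, -0.14, was 0.02 with median scaling.

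Angiogenic, Wnt and endoplasmic reticulum genes were called at 42.9%, 36.4% and 30.4%, near or below the share of all probes. Vegfc, a lymphatic growth factor, rose by 1.34 ± 0.24 without overlap, Sphk1, which makes sphingosine phosphate, by 2.14 ± 0.64 (3.33 without rats 5 and 16) and the coreceptor Nrp2 by 0.86 ± 0.22. Vegfa had 8.89, 9.59 and 9.80 in hCG rats, against 7.55, 9.17 and 11.25 in GnRH rats, whose rats 5 and 16 at 11.19 and 11.25 lay above every hCG rat (-0.01 ± 0.47, adjusted p = 0.985). Without the 2 rats its difference was 0.83 (adjusted p = 0.0714). Of 7 measured angiogenic genes 3 rose and 0 fell (median 0.23), and 4 rose and 0 fell without them (median 1.11). Of 11 Wnt and Notch genes 4 rose and 0 fell (median 0.29), or 4 and 1 without the 2 rats, among them Hey2 by 1.21 ± 0.31 and Wnt4 by 1.30 ± 0.38. Of 23 endoplasmic reticulum genes 7 rose and 0 fell (median 0.26), or 5 and 2 without the 2 rats (median 0.11), with the translocon subunit Sec61a1 higher by 0.88 ± 0.21 and Edem1, of glycoprotein quality control, by 0.77 ± 0.20.

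Genes of the core machinery were called at 3.64% (cytosolic ribosome), 20% (mitochondrial ribosome and respiratory chain) and 38.9% (proteasome), beside 39.8% of all probes, the last near that share. Of 55 cytosolic ribosomal genes 2 rose and 0 fell (median 0.02): Rps12 by 0.23 ± 0.08, a call that was lost without GnRH rat 6 or 17 (adjusted p = 0.0533 and 0.0519), and Rps19bp1, a binding protein that the naming rule caught. Of 55 mitochondrial ribosomal genes 2 rose and 9 fell (median -0.07), such as Mrpl34 by 0.86 ± 0.16 and Mrps24 by 0.66 ± 0.15. Of 55 respiratory chain genes 2 rose and 9 fell (median -0.02, and 0.08 with median scaling), with the ATP synthase subunits Atp5f1d higher by 0.84 ± 0.16 and Atp5f1c lower (-0.42 ± 0.10). Of 36 proteasome genes 10 rose and 4 fell (median 0.13). The ATPase subunit Psmc4 rose by 0.46 ± 0.08, while Psmb8 and Psmb9, subunits of the immunoproteasome, fell by 0.95 ± 0.20 and 0.82 ± 0.14. Of 10 housekeeping genes Ywhaz rose by 0.46 ± 0.12 and Sdha fell by 0.26 ± 0.10, and the call of Sdha ended without any of 10 of the 12 arrays, each but GnRH rat 5 and hCG rat 11 (adjusted p of 0.053 to 0.108).

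GnRH rats 5 and 16 were then placed between the groups gene by gene. On a scale where 0 is the mean of the other 4 GnRH rats and 1 the mean of the hCG rats, over 1091 probes called with at least a 2-fold difference in the fit without these 2 rats, their median positions were 0.53 and 0.57. The 6 GnRH+eCG rats lay at 0.03 to 0.33 and the 6 controls at -0.10 to 0.09 on the same scale. Of 785 genes, 208 had both rats above 0.75, close to the hCG mean, and 158 of these were higher in hCG rats. Another 113 genes had both below 0.25, close to the other GnRH rats, and 464 lay between.

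The median position of the list members ranged widely between lists, and no test was made between lists. The 10 collagen, basement membrane and integrin genes had medians of 1.26 and 1.13 in rats 5 and 16, the 5 hyaluronan matrix genes 1.25 and 1.19, and the 15 ovulatory factors 0.80 and 0.86. The 9 cholesterol genes lay at 0.76 and 0.91, the 12 oocyte genes at 0.43 and 0.53, and the 7 prostaglandin genes at 0.46 and 0.37. The 5 proteases and inhibitors lay at 1.12 and 1.14, the 5 glycolysis genes at 0.96 in rat 16 and higher in rat 5, the 6 cumulus and granulosa markers at 1.05 and 0.99 and the 5 mural granulosa markers at 1.43 and 1.32. Ptgs2 (0.11 and 0.09), Pla2g4a (0.10 and 0.07), Adcyap1 (0.01 and -0.17) and Akr1b8 (0.08 and 0.12) were near the other GnRH rats, while Runx1 (0.85 and 0.84), Idi1 (0.94 and 0.93), Uxs1 (1.08 and 1.00) and Hsd11b1 (1.08 and 1.00) were near the hCG rats. These examples were picked after their values were seen, Ptgs2 was named because it was detected on 0 GnRH arrays, and the positions are given with no test. The 5 theca and stroma markers with a position lay at 1.44 and 1.24.

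**Figure D4:**
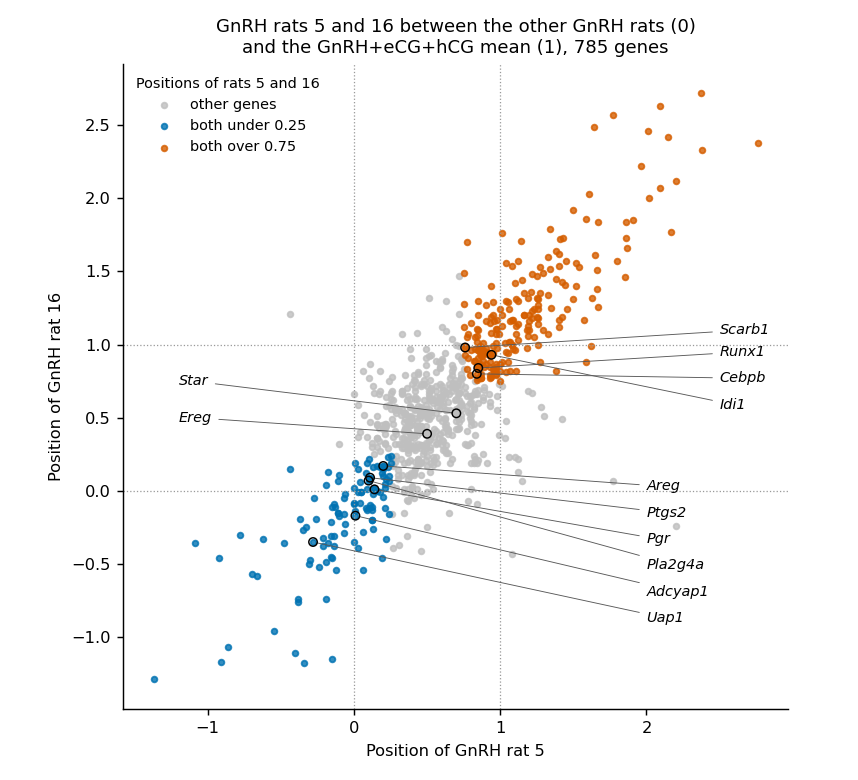
Position of GnRH rat 5 (horizontal axis) and GnRH rat 16 (vertical axis) for each of 785 genes, without unit, where 0 is the mean of the other 4 GnRH rats and 1 the mean of the hCG rats. In 208 genes both rats lie above 0.75 (Runx1 at 0.85 and 0.84), and in 113 both lie below 0.25 (Pla2g4a at 0.10 and 0.07).

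Rats given GnRH and eCG without hCG were a separate group, and their levels are set beside the others here. Set against GnRH rats on the same probes, 0 of 7004 (0%) were called by limma in GnRH+eCG rats, with 379 at an unadjusted p under 0.05. Without GnRH rats 5 and 16, 9 were called. Set against GnRH+eCG rats, hCG rats differed at 2808 probes (40.1%), 1335 higher and 1473 lower. These comparisons share arrays with each other and with the one described above, so values are given side by side.

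For Ptgs2 the lowest, median and highest values were 5.21, 5.44 and 5.85 in controls, 5.21, 5.47 and 6.13 in GnRH rats, 6.24, 7.70 and 9.19 in GnRH+eCG rats and 11.53, 12.97 and 13.25 in hCG rats. It was detected on 4 of 6 GnRH+eCG arrays, and none of their values overlapped the GnRH values, but the difference of 2.02 ± 0.39 did not pass (adjusted p = 0.0755). Pla2g4a medians were 6.90 in controls, 7.70 in GnRH rats, 8.67 in GnRH+eCG rats and 11.63 in hCG rats. The GnRH+eCG rats differed from the GnRH rats by 1.01 ± 0.20 (adjusted p = 0.0755), and the hCG rats from the GnRH+eCG rats by 2.95 ± 0.20 (adjusted p = 1.97e-10). For both genes the larger difference lay between hCG and GnRH+eCG rats. For G0s2 the order of sizes was turned: medians were 7.05 in controls, 7.56 in GnRH rats, 10.31 in GnRH+eCG rats and 11.86 in hCG rats, with differences of 2.19 ± 0.77 between GnRH+eCG and GnRH rats (adjusted p = 0.787) and 1.58 ± 0.77 between hCG and GnRH+eCG rats (adjusted p = 0.105). Neither passed. Cd83 had medians of 9.86 in controls, 9.86 in GnRH rats, 8.99 in GnRH+eCG rats and 7.17 in hCG rats.

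**Figure D5:**
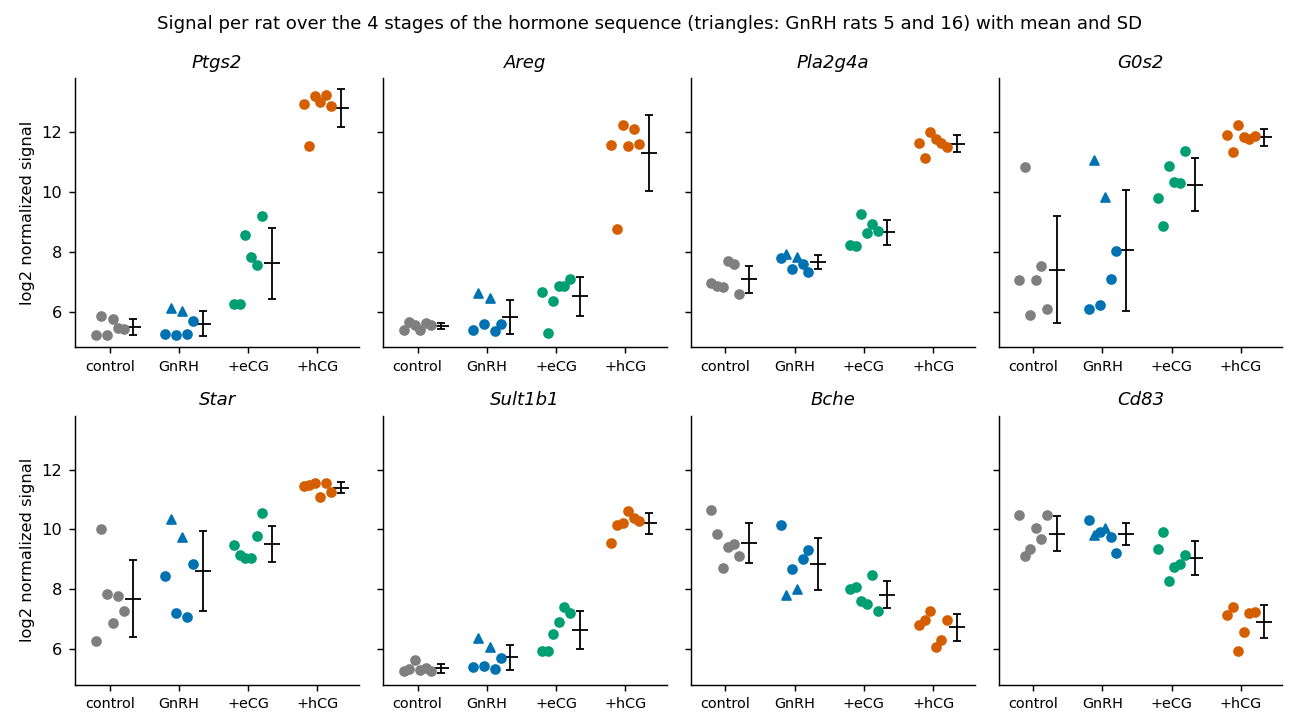
Log2 normalized signal of selected genes in each rat across the 4 groups, from controls through GnRH and GnRH+eCG (marked +eCG) to GnRH+eCG+hCG (marked +hCG), 1 point per rat (triangles for GnRH rats 5 and 16) with the group mean and SD. Ptgs2 lies at 5.21 to 6.13 in GnRH rats, at 6.24 to 9.19 in GnRH+eCG rats and at 11.53 to 13.25 in hCG rats.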

How the data were processed

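Bead signals of 24 arrays, 1 per rat, were deposited by the authors as intensity values in the series matrix, and detection scores as a fraction per probe and array in a table of non-normalized values. BeadStudio is named in the submitters' processing notes, with its version not given in the sources used here; RNA was extracted with a PicoPure kit and labelled with biotin, per the labels. The planned source of signals was the non-normalized table, whose signal columns carry commas, so the series matrix was used, after each array's detection scores were checked to correlate best with its own signal for 24 of 24 arrays. Of 22226 probes 280 had IDs that differ between the tables and were left out. Precision is limited by the number of arrays, since no bead counts or bead errors were used.

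Signals were normalized with neqc (limma 3.58.1, R 4.3.3), which infers background from the detection p, with an offset of 16. limma was fitted to all 24 arrays with 1 mean per group (20 residual degrees of freedom), and p-values were adjusted by Benjamini-Hochberg. Symbols came from the platform annotation (13518 probes with 1 symbol, 8428 with none), and 13478 gene IDs were found in RefSeq. A gene was represented by its brightest probe. Named genes were the 15 largest rises and falls without overlap, up to 8 of each among genes detected in 1 group only, and members of the gene lists, at least the 2 of smallest adjusted p in each; the members and lists were chosen with earlier results of these data known. The fit was tested on simulated data. Alternatives varied normalization, offset, filter, model, threshold and arrays, and those without rats 5 and 16 were chosen after the data were seen. Promoter windows came from RefSeq (GRCr8) and covered 122 of 149 named genes.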

Additional observations from a re-analysis of the deposited data

Results flagged for a closer look

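In 298 groups of 6 values (149 named genes, 2 groups each), the highest or lowest rat was checked for a gap to the nearest other rat that was large for the group's range by Dixon's limit. Chance marks about 1 in 20 groups, and 17 were marked. Of these, 9 concerned hCG rat 11, each time as the lowest of its group. Rat 11 had 9.67 for Ereg (other hCG rats 11.56 to 12.13), 8.77 for Areg (11.53 to 12.23), 11.53 for Ptgs2 (12.89 to 13.25) and 9.83 for Pgr (11.18 to 11.80). It had 9.56 for Tnfrsf12a (10.91 to 11.49), 9.79 for Spry2 (10.75 to 10.97), 9.25 for Mfap3l (9.75 to 9.93), 9.03 for Pfkfb3 (9.59 to 9.83) and 8.89 for Vegfa (9.53 to 9.80). Except for Pfkfb3 and Vegfa, each of these values lay above every GnRH rat.

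In other hCG rats, rat 10 had 8.38 for Adamts3 (others 9.70 to 10.40) and 10.11 for Sdc1 (9.58 to 9.72), rat 23 had 5.81 for Foxn3 (6.54 to 6.94) and rat 12 had 7.72 for Lama1 (8.07 to 8.21). In the GnRH rats, rat 5 had 8.06 for Akr1c2 (others 5.61 to 6.47), 8.31 for Ccnd1 (6.00 to 6.75) and 9.46 for Timp3 (8.84 to 9.06), and rat 18 had 10.78 for Insig2 (11.24 to 11.41).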

How the results depend on the processing

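Of the 2787 probes called with all rats (1332 higher, 1455 lower), leaving out 1 array at a time gave 2443 to 2946 calls, 1165 to 1404 higher and 1267 to 1542 lower. Counts moved by over 1.5 times with array weights (4276, with 2069 higher and 2207 lower), among rats 1 to 12 alone (419, 252 and 167), among rats 13 to 24 alone (1780, 862 and 918), and where at least a 2-fold difference was asked for (730, 402 and 328); an adjusted p under 0.01 left 1844, with 936 lower. Median scaling gave 2294 (941 higher, 1353 lower). Set against GnRH, GnRH+eCG had 0 calls and 9 without rats 5 and 16. No called named gene changed direction under these alternatives; 8 list medians that lay between -0.15 and 0.23 with all rats changed sign under at least 1 of them: angiogenic (-0.02 without GnRH rat 6), cell cycle (0.03 among rats 1 to 12), glutathione (-0.01 without GnRH rat 17), ion channels (0.02) and respiratory chain (0.08) with median scaling, and the mural granulosa, erythrocyte and oviduct epithelium markers. Of 2831 values of named genes under the alternatives, 2689 kept their side of the threshold, 134 lost it, 74 of them among rats 1 to 12 alone, and 8 gained it. No paired analysis was possible because no rat number occurs in more than 1 group. The planned run on series-matrix values was not a separate alternative, since those values were used throughout.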
